A study of Mus musculus with 7 samples.

Results

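Sult1e1, which encodes the sulfotransferase that inactivates oestrogens, was compared together with 8 other cytosolic sulfotransferase genes and Papss2 between livers of Sprtn mutant and wild-type mice. The 10 genes were taken by name from a table of 51826 genes, of which 21027 had at least 1 count. They were chosen with the difference between genotypes in this table known, so that their values are given as a description and not as a test. The knock-in (KI) group held 4 male C57BL/6J mice homozygous for Sprtn Y118C, and the wild-type (WT) group held 3 male C57BL/6J mice. All were 6 months old and untreated, and whole liver was sequenced after enrichment of polyadenylated RNA. Sprtn encodes a protease that digests proteins crosslinked to DNA. Each library was treated as 1 mouse, and p-values measure the spread between these libraries. The labels state neither whether the mice were littermates nor how the knock-in line was founded.

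Cytosolic sulfotransferases (SULTs) move a sulfonate group from the donor 3'-phosphoadenosine 5'-phosphosulfate (PAPS) to steroids, thyroid hormones, bile acids, catecholamines and phenolic drugs. Sulfation makes these compounds more water soluble, and a sulfated oestrogen no longer activates the oestrogen receptor. In mouse liver Sult2a1 and Sult3a1 are known as genes of females, and Sult1e1 is known as a gene of low level in the normal liver. The PAPS that all SULTs consume is made by the synthases Papss1 and Papss2.

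The libraries held 36928472 to 46755357 counts. Sprtn mRNA had 11.3 ± 0.946 CPM, the count scaled to library size, in KI livers (SD, n = 4) and 10 ± 1.11 CPM in WT livers (SD, n = 3), and a point mutation need not alter this level. KI replicate 1 held skeletal muscle transcripts, at 73.8 CPM summed over 7 muscle markers against 0.472 to 1.20 CPM in the other libraries. Pericentral hepatocyte genes summed to 9713 to 10925 CPM in KI livers and to 11478, 6282 and 6190 CPM in WT replicates 1 to 3, so that WT replicate 1 lay near the KI livers. Hepatocyte markers such as Alb and Ttr summed to 61880 to 78973 CPM in KI livers and 75367 to 87073 CPM in WT livers. In bulk liver, fewer cells of a type and less RNA per cell cannot be told apart.

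Sult1e1 lies at the end of a row of sulfotransferase genes on chromosome 5, all on the minus strand, with Sult1d1 6.941 kb and then Sult1b1 a further 16.449 kb away. The 3 genes span 78.256 kb. Their promoters are shown so that the start of Sult1e1, which did not overlap between genotypes, can be set beside those of its neighbours, which did. Each sequence runs from 250 bases before to 50 bases after the RefSeq start of the gene (for Sult1b1, the more upstream of its starts) on GRCm38.p6, 5' to 3', and capitals mark the motifs searched.

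Sult1e1 (chr5:87591562-87591861, minus strand): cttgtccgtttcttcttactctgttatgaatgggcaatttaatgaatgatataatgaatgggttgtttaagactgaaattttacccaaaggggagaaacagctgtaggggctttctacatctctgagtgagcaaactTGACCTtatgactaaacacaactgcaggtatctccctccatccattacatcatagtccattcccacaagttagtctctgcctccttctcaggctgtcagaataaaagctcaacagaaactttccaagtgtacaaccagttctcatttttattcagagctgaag
Sult1d1 (chr5:87568957-87569256, minus strand): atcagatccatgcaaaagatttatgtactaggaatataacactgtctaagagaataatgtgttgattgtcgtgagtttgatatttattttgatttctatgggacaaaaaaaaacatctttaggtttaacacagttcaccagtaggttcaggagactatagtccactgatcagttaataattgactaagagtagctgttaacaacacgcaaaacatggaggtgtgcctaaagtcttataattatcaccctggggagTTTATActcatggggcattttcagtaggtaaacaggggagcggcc
Sult1b1 (chr5:87538146-87538445, minus strand): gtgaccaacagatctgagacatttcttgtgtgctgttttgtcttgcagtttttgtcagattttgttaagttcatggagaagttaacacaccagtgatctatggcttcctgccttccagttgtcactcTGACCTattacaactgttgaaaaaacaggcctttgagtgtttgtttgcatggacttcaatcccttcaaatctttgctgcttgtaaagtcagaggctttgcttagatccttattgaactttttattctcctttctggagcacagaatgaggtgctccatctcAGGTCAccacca

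The motifs searched on both strands were AGGTCA, the core bound by many nuclear receptors, TTCNNNGAA, bound by STAT factors, TATAAA, the TATA box, and the HNF1 motif. No match of these overlapped another in the promoters shown. The Sult1e1 window held 1 match, AGGTCA on its opposite strand, beginning 113 bases before the start. The Sult1b1 window held AGGTCA on both strands, and the Sult1d1 window held TATAAA on the opposite strand just after the start. Over 32851 RefSeq promoters of the same length, 16.3% held AGGTCA, 8.30% TTCNNNGAA, 13.6% TATAAA and 0.0609% the HNF1 motif. The 9 genes with a RefSeq promoter had 12 promoters between them. Of these 12, 4 held AGGTCA, 1 each of Sult1e1, Sult1b1, Sult2a8 and Papss2, and for Sult2a8 it was the promoter 8218 bases from the gene start. TATAAA was in 3, of Sult1d1 and Sult2a8, TTCNNNGAA in 1 and the HNF1 motif in 0. Sult2a1 was not matched.

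Sult1e1 was higher in every KI liver than in any WT liver, and it varied widely among the KI livers. The gene (ENSMUSG00000029272, chromosome 5, 87575969 to 87591594, minus strand, mm10) had 81, 15, 49 and 368 counts in KI replicates 1 to 4, against 3, 8 and 6 counts in WT replicates 1 to 3. Scaled to library size these were 1.79, 0.393, 1.24 and 8.66 CPM in KI livers and 0.0714, 0.200 and 0.125 CPM in WT livers. KI replicate 4 stood far above the other KI livers, and KI replicate 2 lay closest to the WT range, without overlap between the groups. The mean was 3.02 ± 3.80 CPM in KI livers (SD, n = 4) and 0.132 ± 0.0644 CPM in WT livers (SD, n = 3), a 22.9-fold ratio of means. The ratio of the scaled sums, 513 counts in KI livers over 17 in WT livers, was 23.7 with an exact 95% interval from 14.7 to 41.1. The interval covers counting error only and not the spread between mice.

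The edgeR quasi-likelihood fit over all genes put the Sult1e1 log2 difference at 4.50 with a standard error (SE) of 1.16. Its biological coefficient of variation was 0.760, where the median over 13989 genes was 0.148 and 99.5% of the genes had a lower one. Without KI replicate 4 the KI mean was 1.14 ± 0.703 CPM (SD, n = 3), the ratio of means was 8.65-fold and the log2 difference was 3.10 (SE 0.64). Since the groups did not overlap, leaving out a library could not reverse the direction, and only the change in size is informative. KI replicate 1, with its muscle transcripts, gave 1.79 CPM, and leaving it out left a log2 difference of 4.69. WT replicate 1, near the KI livers in the sum of pericentral genes though not in each of them, had the lowest Sult1e1 level of the WT libraries.

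**Figure D1:**
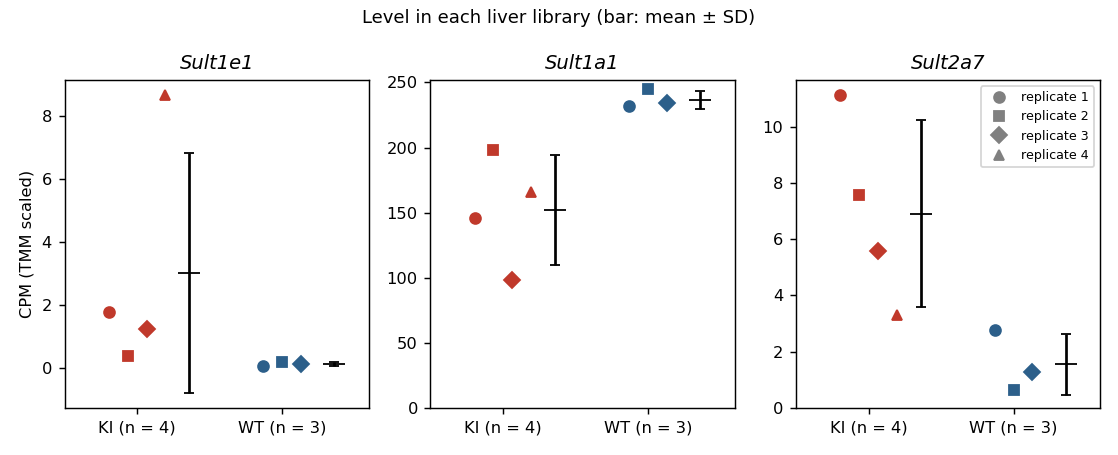
Level of Sult1e1, Sult1a1 and Sult2a7 in CPM (y axis, TMM scaled) in each KI liver (red, n = 4) and WT liver (blue, n = 3), with marker shapes for replicate numbers and black bars for the mean ± SD. KI replicate 4 stands at 8.66 CPM of Sult1e1, the 4 KI livers lie below the 3 WT livers in Sult1a1, and they lie above them in Sult2a7.

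Across the 10 genes, 8 passed the expression filter and 2, Sult2a1 and Sult3a1, did not. In the edgeR quasi-likelihood fit 0 of the 8 passed at an adjusted p under 0.05, where 0.0357% of all genes tested passed (0.0286% higher and 0.00715% lower in KI livers). At an unadjusted p under 0.05 there were 2, where 10.6% of all genes passed. DESeq2 called 1 of the 8, Sult1e1, where it called 1.6% of all genes (1.04% higher and 0.565% lower). The edgeR likelihood ratio test also called Sult1e1 alone, where it called 1.27% of all genes (0.851% higher and 0.415% lower). With limma-voom 0 were called, where it called 0.05% of all genes (0.0357% higher and 0.0143% lower). The authors' deposited table held 1 of the 10 genes, again Sult1e1, at a corrected p under 0.05, where 0.633% of the genes with a value did. Groups did not overlap in 2 of the 8, Sult1e1 higher and Sult1a1 lower in KI livers, against 10.9% of all genes tested (5.48% higher and 5.46% lower). Log2 differences were positive in 4 and negative in 4, with a median of 0.09, beside a median of 0.00070 over all genes tested. Since the genes were chosen on this contrast, nothing is read from these shares.

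Sult1a1, the phenol sulfotransferase that handles small phenols and many drugs, was lower in the KI livers. The gene (ENSMUSG00000030711, chromosome 7, 126672865 to 126676432, minus strand) had 146, 198, 97.9 and 166 CPM in KI replicates 1 to 4, against 232, 245 and 234 CPM in WT replicates 1 to 3. The groups did not overlap, and the KI livers, at 152 ± 42.1 CPM (SD, n = 4), were spread more widely than the WT livers, at 237 ± 6.93 CPM (SD, n = 3). The log2 difference was -0.64 (SE 0.20), and it lay between -0.79 and -0.48 when each library was left out in turn. Of its exonic bases 4.05% are shared with Sgf29 on the opposite strand, and of its 50-base stretches 7.36% occur in transcripts of other genes, mostly Gm6939.

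The other SULT1 genes of the liver overlapped between genotypes. Sult1b1, which sulfates thyroid hormones and phenols, had 22.4, 23.7, 20.6 and 36.1 CPM in KI livers, against 22.4, 14.3 and 23.6 CPM in WT livers. Its highest value was in KI replicate 4, the library with the most Sult1e1, and its log2 difference was 0.35 (SE 0.23). Sult1d1, which sulfates catecholamines and related amines in rodents, had 151, 108, 109 and 132 CPM in KI livers, against 134, 113 and 132 CPM in WT livers. Its log2 difference was -0.01 (SE 0.13), and its sign changed with the libraries kept. Sult1d1 is the gene next to Sult1e1, so that adjacent genes of the row had log2 differences of -0.01 and 4.50. Sult1c2, a member of the 1C subfamily on chromosome 17, had 2.96, 3.04, 3.27 and 3.39 CPM in KI livers, against 4.41, 3.92 and 2.85 CPM in WT livers. The KI livers varied less here than the WT livers, and the log2 difference was -0.23 (SE 0.17).

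Within 200 kb of Sult1e1 the table lists 18 genes, of which 11 had no count in any library and 5 were tested. The tested genes beside the 3 sulfotransferases were Gm21049 and Ugt2b38, a glucuronosyltransferase, with log2 differences of 0.53 (SE 0.27) and 0.11 (SE 0.50). The edgeR quasi-likelihood test called none of the 5 tested genes. The casein genes on the other side of Sult1e1, Csn1s1 and Csn2, had 1 and 0 counts summed over the 7 libraries.

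**Figure D2:**
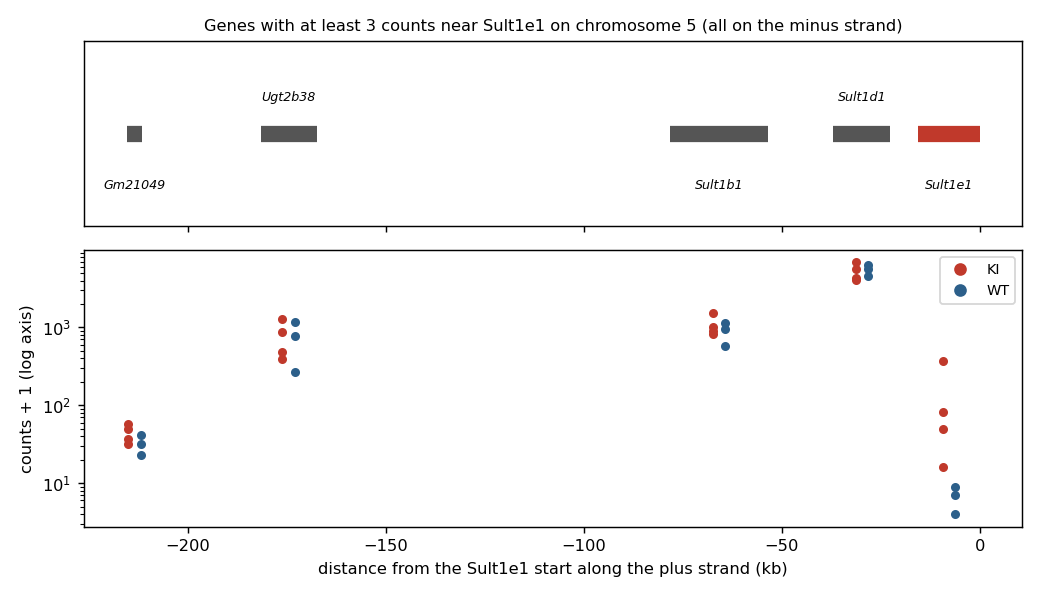
Genes with at least 3 counts near Sult1e1, drawn to scale by their distance in kb from the Sult1e1 start (upper panel), and their counts plus 1 on a log axis in each KI (red) and WT (blue) library (lower panel). Sult1b1 and Sult1d1 overlap between genotypes, whereas the Sult1e1 counts are 15 to 368 in KI livers and 3 to 8 in WT livers.

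Sult2a8, which sulfates bile acids in mouse liver, was the most abundant of the 10 genes and overlapped between genotypes. It had 865, 630, 731 and 876 CPM in KI livers, against 884, 521 and 640 CPM in WT livers. Its log2 difference was 0.19 (SE 0.19), and WT replicate 1 had its highest value. Sult5a1, a gene of chromosome 8 whose substrates are little described, had 7.94, 4.33, 6.03 and 4.50 CPM in KI livers, against 6.07, 4.62 and 3.14 CPM in WT livers. Its log2 difference was 0.31 (SE 0.28), within the spread of both groups.

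Sult2a1 and Sult3a1 were at the limit of detection in these male livers. Sult2a1, the hydroxysteroid sulfotransferase, had 0, 0, 1 and 1 counts in KI livers, against 0, 2 and 0 counts in WT livers. Sult3a1, which sulfates amines, had 1, 2, 2 and 1 counts in KI livers and 0 counts in each WT liver. Both groups lie under a floor of 3 counts per library for either gene, so that no fold is given. Of the 50-base stretches of Sult2a1, 33.2% occur in other genes, mostly Sult2a2, and its counts are uncertain for that reason. Of those of Sult3a1, 6.15% occur in Sult3a2.

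Papss2, the PAPS synthase, had 155, 108, 140 and 122 CPM in KI livers, against 128, 148 and 158 CPM in WT livers. The groups overlapped, and the log2 difference was -0.14 (SE 0.13). The start of Papss2 in GENCODE release M21 differs from that in the table, which gives chromosome 19, 32620005 to 32667187, plus strand.

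The 9 SULT genes and Papss2 were then ordered by TPM, the authors' level per transcript length. Averaged over the 7 libraries, Sult2a8 stood first at 438 ± 70.4 TPM (SD, n = 7), before Sult1a1 at 247 ± 76.1, Sult1d1 at 100.1 ± 10.6, Papss2 at 74.1 ± 10.5 and Sult1b1 at 16.5 ± 4.62 TPM. Lower levels were found for Sult1c2 at 3.62 ± 0.536 TPM, Sult1e1 at 2.78 ± 4.86, Sult5a1 at 2.30 ± 0.592, Sult3a1 at 0.0364 ± 0.0403 and Sult2a1 at 0.0273 ± 0.0381 TPM (SD, n = 7 each). The ranges overlapped between Sult2a8 and Sult1a1, between Sult1d1 and Papss2, between Sult1e1 and each of Sult1c2 and Sult5a1, and between Sult3a1 and Sult2a1. They did not overlap between Sult1a1 and Sult1d1, Papss2 and Sult1b1, Sult1b1 and Sult1c2, or Sult5a1 and Sult3a1. By group means Sult1e1 ranked 6 of 10 in KI livers, with 4.71 ± 5.97 TPM (SD, n = 4), and 8 of 10 in WT livers, with 0.213 ± 0.107 TPM (SD, n = 3). The KI rank rested on KI replicate 4, at 13.6 TPM. In KI replicates 1 to 3 Sult1e1 had 2.65, 0.661 and 1.94 TPM, below both Sult1c2 and Sult5a1 in each.

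The summed TPM of 21 cytosolic sulfotransferase genes was 796 ± 87.7 in KI livers (SD, n = 4) and 845 ± 83.7 in WT livers (SD, n = 3), and the groups overlapped. Sult1e1 made up 0.325, 0.0823, 0.287 and 1.53% of this sum in KI replicates 1 to 4, against 0.0117, 0.0428 and 0.0241% in WT replicates 1 to 3. Even in KI replicate 4 it was a small share beside Sult2a8, at 58.5% of the sum, and Sult1a1, at 24.1%. The share of Sult1a1 was 24.7 ± 6.73% in KI livers (SD, n = 4) and 37.3 ± 5.97% in WT livers (SD, n = 3), and that of Sult2a8 was 57.9 ± 5.90% in KI livers and 47.9 ± 6.35% in WT livers. Shares of 1 sum move against each other, and both ranges overlapped between genotypes.

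**Figure D3:**
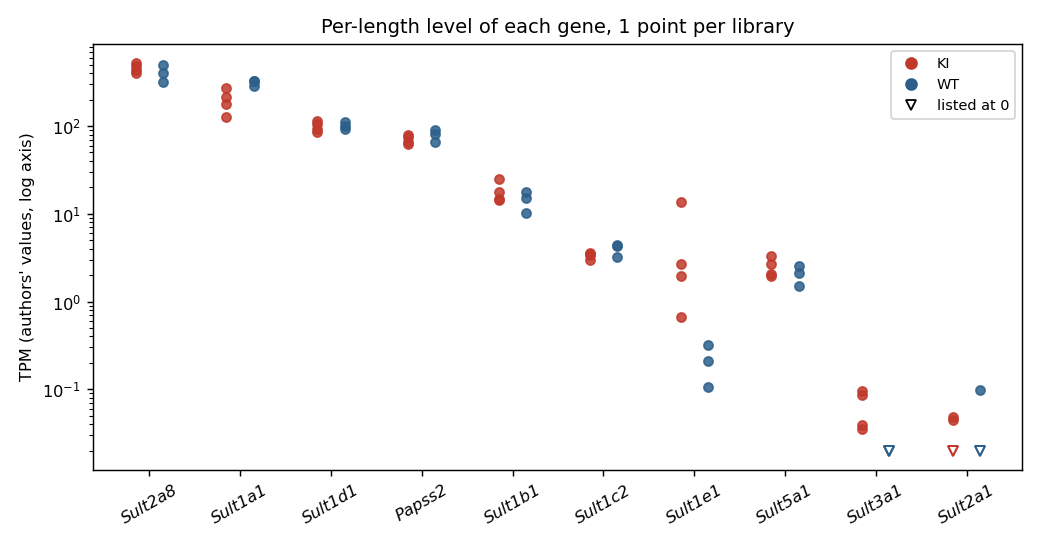
Level of each gene in TPM, the authors' values per length, on a log axis, with 1 point per KI (red) and WT (blue) library and open triangles for libraries listed at 0. Sult2a8 leads at 438 TPM on average, and Sult1e1 shows the widest spread, with 13.6 TPM in KI replicate 4 and 0.213 TPM on average in WT livers.

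Of the 12 further cytosolic SULT genes, 1 was tested, Sult2a7, a member of the mouse Sult2a family that lies 18.281 kb from Sult2a8 on chromosome 7. Sult2a7 (14465051 to 14494230, minus strand) had 505, 289, 221 and 140 counts in KI replicates 1 to 4, against 116, 26 and 61 counts in WT replicates 1 to 3. The groups did not overlap, at 6.90 ± 3.32 CPM in KI livers (SD, n = 4) and 1.56 ± 1.09 CPM in WT livers (SD, n = 3), and WT replicate 1 lay closest to the KI range. The ratio of means was 4.43-fold, and the log2 difference of 2.14 (SE 0.53) did not pass in edgeR (adjusted p = 0.257). Without WT replicate 1 the ratio was 7.20-fold, and the log2 difference lay between 1.78 and 2.83 when each library was left out in turn. DESeq2 called it (adjusted p = 0.00158), as did the edgeR likelihood ratio test, and the authors' deposited table held it at a corrected p of 2.75e-05. None of its 50-base stretches occurs in another gene. KI replicate 1 was highest in Sult2a7 and KI replicate 4 lowest, whereas KI replicate 4 was highest in Sult1e1. Of the other 11 genes, Sult2a3, Sult2a4, Sult2a5, Sult2a6 and Sult3a2 had 0 counts in all 7 libraries, and Sult1c1, Sult2a2, Sult2b1, Sult4a1, Sult6b1 and Sult6b2 had 0 to 6 counts per library.

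The genes that supply and recycle PAPS showed no call. Of 5 tested, 0 passed in edgeR and in DESeq2, 0 had an unadjusted p under 0.05 in edgeR, and 4 had positive log2 differences, with a median of 0.20. Bpnt1, the phosphatase that degrades the spent donor, had 64.8, 65.2, 66.6 and 67.8 CPM in KI livers, against 63.3, 48.0 and 59.5 CPM in WT livers (log2 difference 0.22, SE 0.10, edgeR adjusted p = 0.484). Impad1, its counterpart in the Golgi, had a log2 difference of 0.15 (SE 0.09) (edgeR adjusted p = 0.577). Its highest level was in KI replicate 2, at 64.2 CPM.

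Sulfate is taken up from blood or made from cysteine, and of 13 tested genes of these steps 0 passed in edgeR, with 1 higher and 1 lower at an unadjusted p under 0.05. The median log2 difference was -0.06. Slc13a4, a sodium-sulfate cotransporter, had 17, 22, 13 and 25 counts in KI livers, against 6, 5 and 1 counts in WT livers. The groups did not overlap, and the log2 difference of 2.28 (SE 0.54) did not pass in edgeR (adjusted p = 0.257) but did in DESeq2 (adjusted p = 0.0322). It did not pass in the authors' deposited table, at a corrected p of 0.0812. Cbs, the cystathionine synthase that opens the path from homocysteine to cysteine, had 465, 346, 379 and 408 CPM in KI livers, against 439, 692 and 637 CPM in WT livers. WT replicate 1 lay within the KI range, and the log2 difference was -0.56 (SE 0.17) (edgeR adjusted p = 0.331).

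Sulfatases, which remove sulfate, and the Golgi sulfotransferases, which act on sugars and proteins, also gave 0 calls in edgeR and in DESeq2. Of 12 tested sulfatase genes 1 was higher at an unadjusted p under 0.05 and the median log2 difference was 0.07. Galns, a lysosomal sulfatase, had a log2 difference of 0.44 (SE 0.17, edgeR adjusted p = 0.413), and Arsb, arylsulfatase B, had 0.13 (SE 0.07, edgeR adjusted p = 0.510). Of the exonic bases of Arsb, 39.9% are shared with genes on the opposite strand. Of 17 tested Golgi genes 1 was higher and 2 were lower at an unadjusted p under 0.05, with a median of 0.03. Chst2, a carbohydrate sulfotransferase, had 1.77, 1.42, 1.88 and 1.51 CPM in KI livers, against 1.93, 3.54 and 2.77 CPM in WT livers (log2 difference -0.74, SE 0.23, edgeR adjusted p = 0.346). Hs2st1, which sulfates heparan, had 12.4 ± 0.147 CPM in KI livers (SD, n = 4) and 10.1 ± 1.64 CPM in WT livers (SD, n = 3) (edgeR adjusted p = 0.404).

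Of 11 tested genes of the oestrogen list, which holds the receptor and the enzymes that interconvert oestrogens, 0 passed in edgeR and in DESeq2. Log2 differences were positive in 10 of the 11, with a median of 0.19, beside a median of 0.00070 over all genes tested. In edgeR 2 were higher at an unadjusted p under 0.05. Those 2 were the hydroxysteroid dehydrogenases Hsd17b12 and Hsd17b7, with log2 differences of 0.23 (SE 0.09, edgeR adjusted p = 0.415) and 0.32 (SE 0.13, edgeR adjusted p = 0.440). Of 19 tested nuclear receptors and other factors with reported roles at Sult genes, 0 passed in edgeR and in DESeq2 and 1 was lower at an unadjusted p under 0.05, with a median of -0.01. This was Rora, a receptor reported to repress Sult1e1 in mouse liver. Rora had 62.6, 58.3, 56.5 and 55.6 CPM in KI livers, against 64.9, 77.3 and 70.6 CPM in WT livers. The groups did not overlap, and the log2 difference of -0.28 (SE 0.08) did not pass in edgeR (adjusted p = 0.331). Nr1i2, the pregnane X receptor, had -0.23 (SE 0.11, edgeR adjusted p = 0.487).

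Sex-biased liver genes were listed because several Sult genes differ between the sexes. Of 11 tested female-biased genes 0 passed in edgeR and 3 were lower at an unadjusted p under 0.05, with a median of -0.14. DESeq2 called 1 lower, Cyp2b10, a drug-metabolizing cytochrome P450, with 2.52, 3.67, 2.46 and 4.83 CPM in KI livers and 8.03, 5.94 and 8.21 CPM in WT livers (log2 difference -1.13, SE 0.25, edgeR adjusted p = 0.236). Cyp17a1, a steroid hydroxylase, had a log2 difference of -2.17 (SE 0.53) (edgeR adjusted p = 0.257). It had 2.87 to 8.13 CPM in KI livers and 9.05, 49.2 and 21.9 CPM in WT replicates 1 to 3, so that WT replicate 1 lay near the KI range. The log2 difference was -1.39 without WT replicate 2, and it passed in edgeR at -2.59 without WT replicate 1. Of 16 male-biased genes 0 passed in edgeR and 3 were higher at an unadjusted p under 0.05, with a median of 0.34. They summed to 54705, 29307, 52732 and 26686 CPM in KI replicates 1 to 4, on both sides of the WT range of 31539 to 33084 CPM. DESeq2 called 1, Cyp4a12a, a fatty acid hydroxylase (log2 difference 0.78, SE 0.11, edgeR adjusted p = 0.0846). Cyp7b1, an oxysterol hydroxylase, had 0.55 (SE 0.22, edgeR adjusted p = 0.418). At a corrected p under 0.05 the authors' deposited table held 3 female-biased genes lower and 1 male-biased gene higher.

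Genes of the lobule zones and of inflammation were listed as states of the liver that could move beside the Sult genes, and their part in the Sult values was not tested. Of 17 pericentral genes 0 passed in edgeR, 5 were higher at an unadjusted p under 0.05 and DESeq2 called 4 higher, with a median of 0.36. The ammonium transporter Rhbg and the carboxylate transporter Slc13a3 had log2 differences of 1.67 (SE 0.37, edgeR adjusted p = 0.237) and 1.00 (SE 0.24, edgeR adjusted p = 0.257), and Slc13a3 passed in edgeR without WT replicate 1. Rhbg shares 61.4% of its exonic bases with Gm38392 on the same strand, and its counts are uncertain. Of 15 periportal genes 0 passed in edgeR, 8 were lower at an unadjusted p under 0.05 and DESeq2 called 5 lower, with a median of -0.50. Sdsl and the serine dehydratase Sds had -1.15 (SE 0.23, edgeR adjusted p = 0.191) and -0.91 (SE 0.21, edgeR adjusted p = 0.257), with 29.6% of the Sds exons overlapped by opposite-strand genes. Sdsl passed in edgeR without WT replicate 1, and also without it and KI replicate 1. Of 14 acute phase and inflammation genes 0 passed in edgeR, 4 were higher and 2 lower at an unadjusted p under 0.05, and DESeq2 called 1 higher, with a median of 0.16. That gene was Lcn2, an iron-siderophore binding protein, with 23.7, 23.9, 9.17 and 8.59 CPM in KI livers and 3.17, 5.72 and 5.59 CPM in WT livers (edgeR adjusted p = 0.257). KI replicate 4, highest in Sult1e1, was lowest of the KI livers in Lcn2. Orm2, an acute phase glycoprotein, had a log2 difference of 1.31 (SE 0.41, edgeR adjusted p = 0.346).

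**Figure D4:**
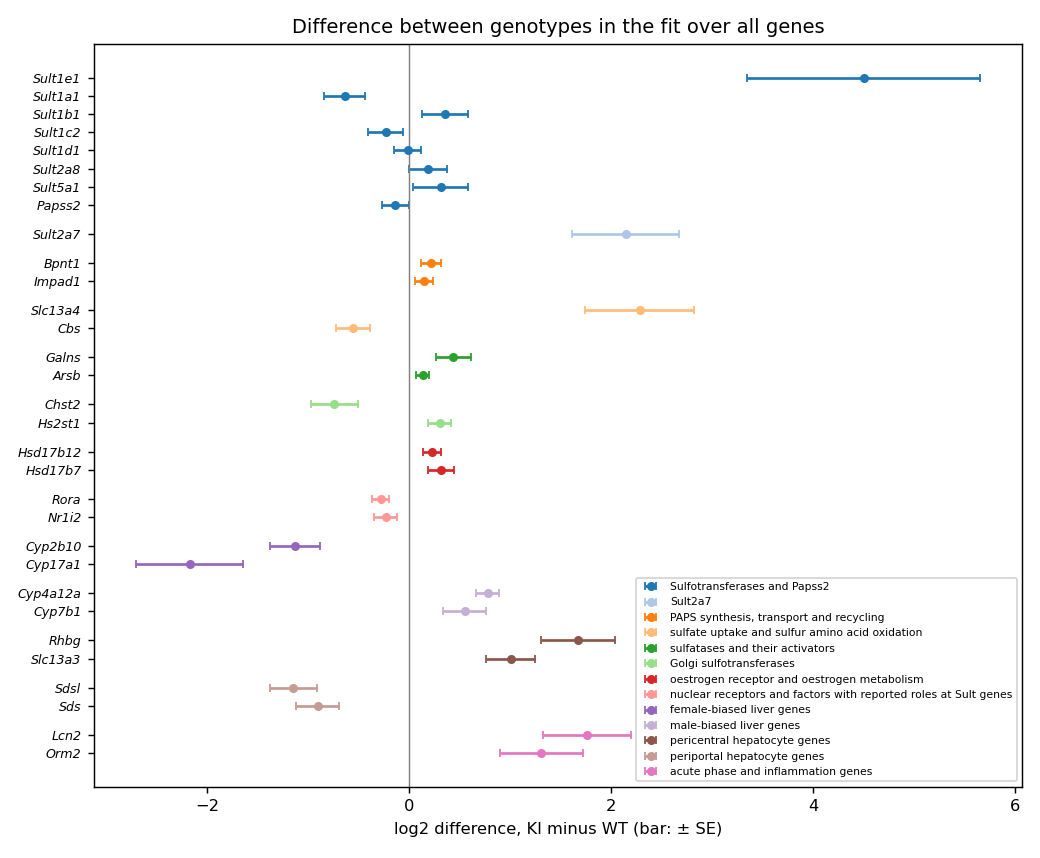
Log2 difference between genotypes, KI minus WT, with ± SE bars, for the 8 tested sulfotransferase and Papss2 genes and for the 2 genes of smallest p in each list (1 in the list of further cytosolic SULT genes). Sult1e1 stands at 4.50, Sult2a7 at 2.14 and Slc13a4 at 2.28, while Sult1d1 and Papss2 lie near 0.

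Fat cells also express Sult1e1, so that markers of other cells were set beside it. The 6 adipocyte markers summed to 5.70 to 9.58 CPM in KI livers and 5.88 to 11.2 CPM in WT livers. Most of this sum was Fabp4, which fat cells share with endothelial cells and macrophages, with 248, 245, 202 and 334 counts in KI livers, against 243, 370 and 527 counts in WT livers. Its groups overlapped, with a log2 difference of -0.48. Cfd, also a marker of the list, had 80, 57, 23 and 70 counts in KI livers, against 2, 0 and 5 counts in WT livers. Its groups did not overlap, with a log2 difference of 4.62. Lep had 0 counts in every library, and Adipoq had 3, 0, 0 and 0 counts in KI livers and 1, 0 and 3 counts in WT livers. KI replicate 4, with 368 Sult1e1 counts, had 0 counts of Adipoq and Lep, 1 of Plin1, 70 of Cfd and 334 of Fabp4. Of the 2 adipocyte markers tested, Cfd and Fabp4, edgeR called 0 and had 1 higher at an unadjusted p under 0.05, while DESeq2 called 1 higher, Cfd. The authors' deposited table also held 1 gene of this list as higher. Cholangiocyte markers summed to 49.7 to 69.4 CPM in KI livers and 35.0 to 51.0 CPM in WT livers, and 0 of 6 tested passed in edgeR, with 1 higher at an unadjusted p under 0.05 and 1 called by DESeq2. Kupffer cell markers summed to 207 to 265 CPM in KI livers and 267 to 349 CPM in WT livers, with 1 of 8, Timd4, lower in edgeR and 5 lower in DESeq2. Stellate cell markers had 274 to 319 CPM in KI livers and 253 to 298 CPM in WT livers, and endothelial markers had 196 to 245 CPM in KI livers and 200.2 to 225 CPM in WT livers. Whether other cells contributed to the Sult values was not tested.

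The genes whose pattern was most like Sult1e1 over the 7 libraries, by Pearson's r of log2 CPM among 11136 genes, were Accs (0.979), Washc4 (0.966), Syne4 (0.965), Cdc16 (0.961), Klhdc4 (0.959) and Nucb2 (0.948). The points share library depth and genotype, and r is given as a description. Syne4, a protein of the nuclear envelope, had 1.59, 1.55, 1.70 and 2.94 CPM in KI livers, against 0.881, 1.17 and 1.04 CPM in WT livers, again with KI replicate 4 far above the others. Accs had 2.26 to 2.99 CPM in KI livers and 2.02 to 2.10 CPM in WT livers, a much smaller range than that of Sult1e1. Without KI replicate 4, and likewise without WT replicate 3, 0 of these 6 genes were among the 6 most alike.

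The size of the Sult1e1 difference moved most with KI replicate 4 and with the replicate number as a block. The log2 difference was 3.10 without KI replicate 4 and 2.96 with the block, in which KI replicate 4 has no WT partner and adds nothing to the difference. It lay between 4.22 and 4.89 without each other library.

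**Figure D5:**
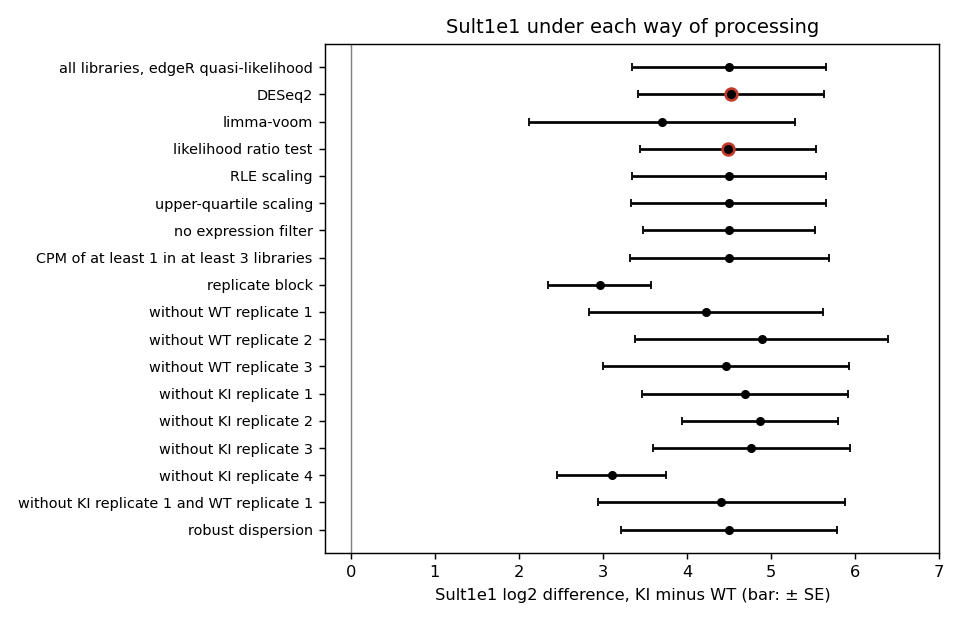
Log2 difference of Sult1e1, KI minus WT, with ± SE bars, under each way of processing, where larger red points mark the fits in which the gene passed at an adjusted p under 0.05. Values run from 2.96 with the replicate block to 4.89 without WT replicate 2, and the 2 fits in red are DESeq2 and the edgeR likelihood ratio test.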

How the data were processed

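Messenger RNA of 4 KI and 3 WT livers was sequenced. The submitters' processing notes name mm10 as the build, and the labels name no mapper, counter or annotation. Per the labels' protocols, second-strand synthesis used dNTPs and no strand marking is mentioned. The libraries were therefore taken as unstranded, which was not checked, and reads of opposite strands may not be told apart. The gene counts are whole numbers without normalization, as deposited by the authors, per the file headers. The TPM values are the authors', each library summing to 1000000, per the file headers, and were used to compare levels between genes. The authors' log2 fold changes and corrected p-values, per the file headers, served to set their calls beside the new ones. The other 14 columns of library values were not used.

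The main test was the quasi-likelihood test of edgeR 4.0.16 (R 4.3.3) after filterByExpr and TMM normalization, with genotype as the only term and Benjamini-Hochberg adjustment over 13989 genes at 0.05. SE is the log2 difference divided by the square root of F. CPM are TMM scaled, and log2 CPM has a prior count of 2. The members and the 20 gene lists were chosen with earlier results of these data known. Named were all members, the 6 genes most like Sult1e1 (mean CPM of at least 1, no clone name), the 2 genes of smallest p in each list that marks no cell type, and Sprtn. Named after their values were seen were Timd4, Cfd, Fabp4, Adipoq, Plin1, Lep, Gm21049, Ugt2b38, Csn1s1 and Csn2, and sulfotransferases without a test. Of the listed genes 3 were not analysed here. Gene overlaps and shared 50-base stretches come from GENCODE release M21, promoters from RefSeq on GRCm38.p6. Fits were tested on simulated counts. Alternatives were DESeq2 1.42.0, limma-voom (limma 3.58.1), the edgeR likelihood ratio test, RLE and upper-quartile scaling, no filter, a minimum of 1 CPM in 3 or more libraries, the replicate block and leaving out each library. Robust dispersion and leaving out KI replicate 1 with WT replicate 1 were chosen after seeing the data. Chi-square tests of counts found every pair of libraries within a genotype to differ by more than sampling noise.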

Additional observations from a re-analysis of the deposited data

Results flagged for a closer look

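Sult1e1 in KI replicate 4, at 8.66 CPM, lay far from the other KI livers at 1.79, 0.393 and 1.24 CPM, with a gap of 0.831 of the KI range, just over Dixon's critical value for 4 samples. Syne4 in KI replicate 4, at 2.94 CPM, lay far above the other KI livers at 1.55 to 1.70 CPM, and Impad1 in KI replicate 2, at 64.2 CPM, lay far above the other KI livers at 53.4 to 54.7 CPM. Chance alone places about 1 in 20 groups this far apart where values are normally distributed, and 38 genes were examined. The gaps were taken on CPM and not on log2 CPM, so that the flags hold for that scale only. Syne4 was named for its likeness to Sult1e1, so that its value is not independent of that of Sult1e1.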

How the results depend on the processing

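Over all genes edgeR called 5, against 224 with DESeq2, 177 with the likelihood ratio test, 18 without a filter, 1 with the replicate block, 29 without KI replicate 1 and WT replicate 1, and 3 to 98 without each library, 98 being without WT replicate 1 and 3 without KI replicate 1 or 4. Among the Sult genes and Papss2 0 were called, and 1, Sult1e1, with DESeq2 (log2 difference 4.52) and the likelihood ratio test (4.49). The Sult1e1 log2 difference was positive in all 17 alternatives, from 2.96 with the replicate block to 4.89. It lay from 3.10 to 4.89 without each library, where its sign was fixed because the groups did not overlap. DESeq2 and the likelihood ratio test each called 1 further SULT gene, Sult2a7, 1 gene of sulfate supply, Slc13a4, 1 male-biased gene and 1 acute phase gene, where edgeR called 0. DESeq2 called 1 female-biased, 4 pericentral and 5 periportal genes, and the likelihood ratio test 3, 2 and 4. Without a filter 1 male-biased gene was called. Without KI replicate 1 and WT replicate 1, 1 male-biased and 1 periportal gene were called. Without each library 0 to 1 female-biased, 0 to 2 male-biased, 0 to 4 pericentral and 0 to 4 periportal genes were called, all of them without WT replicate 1; the cause was not tested. The Sult1d1 log2 difference was -0.01 and lay from -0.12 to 0.054 without each library, positive without WT replicate 1 (0.03), WT replicate 3 (0.02), KI replicate 2 (0.054) or KI replicate 3 (0.05). Of the 6 genes most like Sult1e1, 3 were among the 6 most alike by Spearman correlation and 0 to 3 without each library. The replicate number marks no shared origin in the labels, and deviations of same-numbered KI and WT libraries correlated at -0.06, 0.01 and -0.02, so that the block was not used to pair. Counts of under 3 per library leave Sult2a1 and Sult3a1 beyond comparison.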
